A study of Mus musculus with 24 samples.

Results

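Polycomb repressive complex 2 (PRC2) was described through 10 genes, Ezh1, Ezh2, Eed, Suz12, Rbbp4, Rbbp7, Mtf2, Phf19, Jarid2 and Aebp2, taken from the count table by gene symbol. All 10 were found among the 18647 genes of the count table, and all 10 passed the filter on low counts that left 18153 genes for testing. The libraries were made from polyA RNA of the microdissected CA1 subfield of the hippocampus of adult C57Bl/6N mice, at least 60 days old, and 24 libraries were available, 3 in each of 8 groups. In 5 groups, SE 6 h, SE 12 h, SE 24 h, SE 36 h and SE 72 h (15 libraries), the mice had been injected with 335 mg/kg pilocarpine hydrochloride and had entered status epilepticus (SE), a prolonged convulsive seizure. In 3 groups (Ctr 12, 36 and 72 h, 9 libraries) saline was given in place of pilocarpine. Both arms received 1 mg/kg scopolamine methyl nitrate beforehand and 4 mg/kg diazepam afterwards, so the comparison is between SE and drug-treated non-SE mice and not with naive animals. Pilocarpine-injected mice that did not develop SE were not used by the study, so pilocarpine itself and SE cannot be told apart. No control group was made for 6 and 24 h. Nothing in the labels states that the 3 libraries of a group came from 3 different mice, and the p-values measure the spread between these libraries.

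PRC2 places methyl groups on lysine 27 of histone H3, a mark of silenced genes that keeps developmental programmes switched off in differentiated cells. The enzyme is either EZH2, the usual form in dividing cells, or its paralogue EZH1, the form that prevails in postmitotic cells such as neurons. Either enzyme works only together with EED, SUZ12 and one of the histone-binding proteins RBBP4 and RBBP7. Further subunits define alternative assemblies: the Polycomb-like proteins MTF2 and PHF19 mark one, and JARID2 with AEBP2 mark the other.

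Sequencing depth ranged from 2663936 counts (Ctr 72 h replicate 3) to 30133731 counts (SE 12 h replicate 2) assigned to genes. The lowest count of any of the 10 genes in any library was 5, for Phf19, and the precision of this gene is correspondingly low. Levels are given as CPM, counts relative to the TMM-scaled library size. All 4 markers of CA1 pyramidal cells, Wfs1, Fibcd1, Mpped1 and Pou3f1, were counted in every library, and their summed level was 704 to 1407 CPM in control and 293 to 860 CPM in SE libraries. Ctr 72 h replicate 2 stood apart, with 1079 CPM for 6 markers of sensory ganglia against 4.32 to 51.0 CPM in all other control libraries. The same markers reached 201 to 580 CPM in 1 or 2 libraries each of SE 6, 12, 36 and 72 h. A gene was called where its Benjamini-Hochberg adjusted p from edgeR's quasi-likelihood fit did not exceed 0.05 and its log2 fold change (log2FC) was 0.66 or more in size. The fit covered all 24 libraries and carried 1 RUVr factor, an estimate of unwanted variation from the residuals. Its value was 0.797 for Ctr 72 h replicate 2 and -0.383 and -0.374 for Ctr 72 h replicates 1 and 3. In all other libraries it lay between -0.102 and 0.136, so it chiefly separated the Ctr 72 h libraries from each other. Fitted fold changes that use Ctr 72 h can therefore differ from the ratio of mean CPM.

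In control CA1 the catalytic pair was dominated by Ezh1. Per kilobase of exon, the mean of the 9 control libraries was 9.72 CPM per kb for Ezh1 and 0.961 CPM per kb for Ezh2. The length is the union of all annotated exons of a gene and can exceed that of the transcripts expressed. The order of genes on this scale is therefore approximate, above all where values lie close. On the same scale only Rbbp7 (16.3 CPM per kb) lay above Ezh1, and Rbbp4 (9.46 CPM per kb) lay just below it. Mtf2 (7.42), Suz12 (6.41), Jarid2 (4.40), Aebp2 (4.16) and Eed (3.69 CPM per kb) followed. Phf19 was the lowest at 0.252 CPM per kb. The 3 control groups did not separate for these genes: 0 of 10 were called in any of the 3 comparisons between control groups, 0 of 10 reached an unadjusted p under 0.05 by edgeR, DESeq2 or limma-voom, and the share of all tested genes called was 0, 0.931 and 1.97% for 36 against 12 h, 72 against 12 h and 72 against 36 h.

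**Figure D1:**
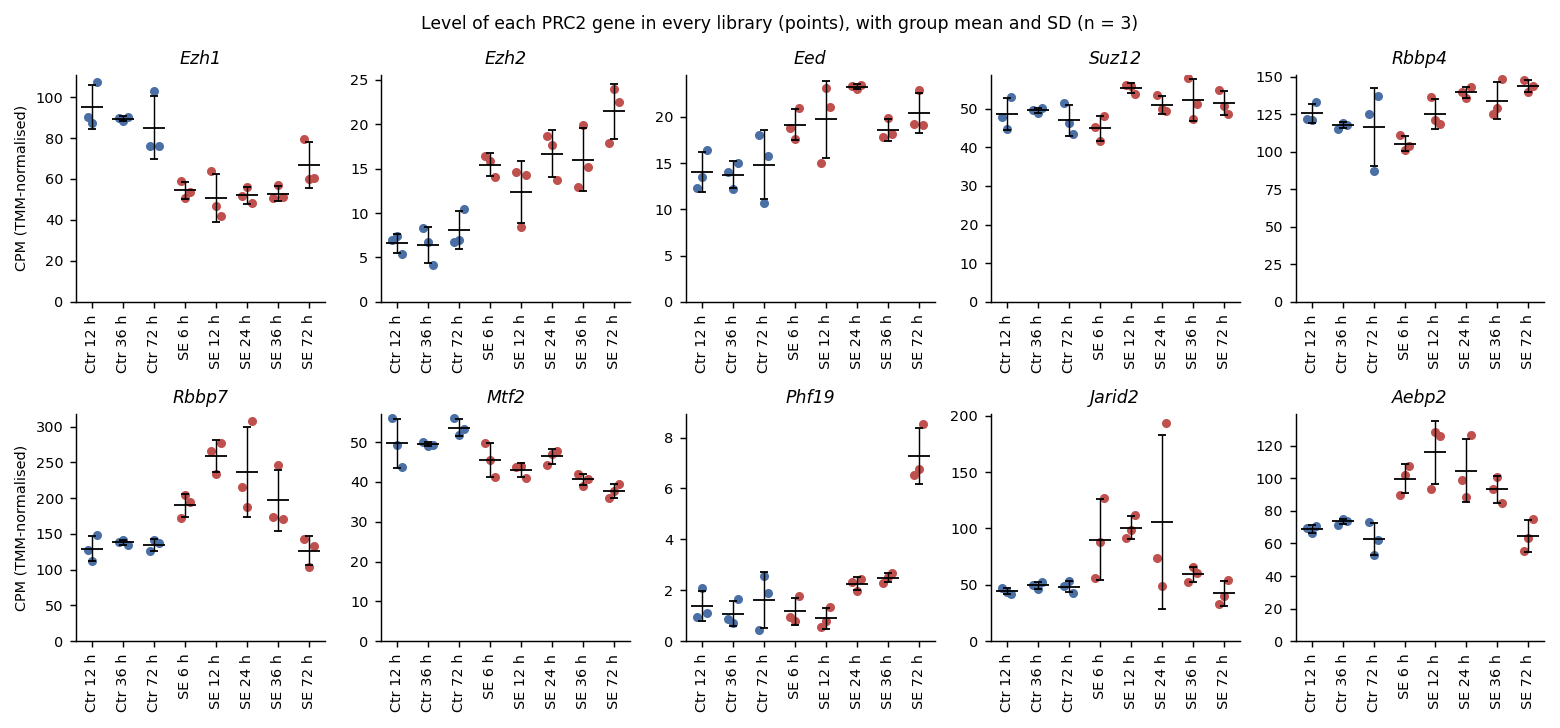
CPM of each PRC2 gene (vertical axes, from 0) in the 24 libraries by group (horizontal axes), with 1 point per library, control groups in blue and SE groups in red, and a black bar with whiskers for the group mean and SD (n = 3). Ezh1 lies between 76.1 and 108 CPM in the controls and between 41.8 and 79.7 CPM after SE, Ezh2 lies higher after SE at every time point except for 1 library of SE 12 h, and Phf19 is highest at 72 h.

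Within the 12 h comparison, 5 of the 10 PRC2 genes were called, 4 higher (Ezh2, Jarid2, Aebp2 and Rbbp7) and 1 lower (Ezh1), against 25.2% of all tested genes. At 36 h 3 of 10 were called (Ezh2 and Phf19 higher, Ezh1 lower), against 21.6% of all genes. At 72 h 2 of 10 were called (Ezh2 and Phf19, both higher), against 19.4%. For SE 6 h, set against the mean of the 3 control groups, 3 of 10 were called (Ezh2 and Jarid2 higher, Ezh1 lower; 22% of all genes). For SE 24 h, set against the same control libraries, 5 of 10 were called (Ezh2, Eed, Jarid2 and Rbbp7 higher, Ezh1 lower; 24.1% of all genes). For 12, 36 and 72 h the median log2FC of the 10 genes was 0.33, 0.30 and 0.08, beside 0.01, 0.003 and 0.10 over all genes tested. By adjusted p alone, at any fold, 6, 6 and 5 of 10 passed for 12, 36 and 72 h (38.5, 31.7 and 28.1% of all genes), and 6 and 7 of 10 for 6 and 24 h (39.9 and 41.3%). The share of members called was thus close to the background of all genes for 36 h (3 of 10), 72 h (2 of 10) and 6 h (3 of 10), and above it for 12 and 24 h (5 of 10 each), with no test of that difference. The 24 h count was 3 without SE 24 h replicate 3, and with the running-number factor the counts were 3 at 12 h and 2 at 24 h. This factor enters the range of the running numbers in the labels into the fit: 92 to 104, 109 to 122 or 162 to 169. The labels give only a number per sample and do not say what it stands for, and the ranges were set for this work. All SE 24 h libraries lie in the range 92 to 104, which holds no control library, so this factor cannot separate running number from treatment at 24 h. The comparisons of 6 and 24 h share their controls and are not matched for time after injection.

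**Figure D2:**
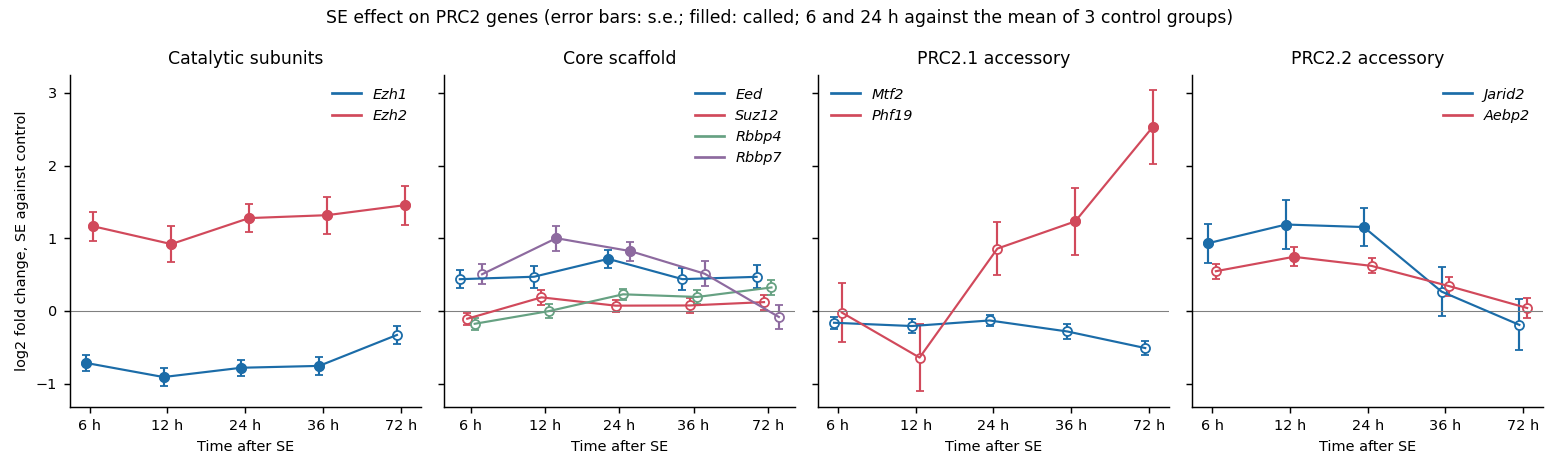
log2FC of SE against control (vertical axis) for each SE time point (horizontal axis, evenly spaced) for the PRC2 genes grouped by role, with error bars of 1 standard error from edgeR and filled points for called genes. Controls are time-matched at 12, 36 and 72 h, and 6 and 24 h are set against the mean of the 3 control groups. Ezh2 lies above and Ezh1 below 0 at every time point, Rbbp7, Jarid2 and Aebp2 lie above 0 from 6 to 24 h and near 0 at 72 h, and Phf19 rises to 2.54 at 72 h.

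Ezh1 and Ezh2, the alternative catalytic subunits, moved in opposite directions. The level of Ezh1 was 90.4, 87.5 and 108 CPM in the Ctr 12 h libraries, 89.8, 88.4 and 90.4 CPM at Ctr 36 h, and 76.2, 103 and 76.1 CPM at Ctr 72 h. After SE it was 58.8, 50.7 and 53.7 CPM (SE 6 h), 63.9, 46.7 and 41.8 CPM (SE 12 h), 51.7, 56.2 and 48.1 CPM (SE 24 h), 50.6, 56.9 and 51.2 CPM (SE 36 h), and 79.7, 60.2 and 60.3 CPM (SE 72 h). Every SE library from 6 to 36 h lay below every control library, and only the 72 h groups overlapped. Ezh1 fell to 0.532 of the control level at 12 h (log2FC -0.91, s.e. 0.13, edgeR adjusted p 1.75e-05) and to 0.592 at 36 h (log2FC -0.76, s.e. 0.13). At 72 h the log2FC was -0.33 (s.e. 0.13) and the gene did not pass (edgeR adjusted p = 0.0594). The difference between the effects at 72 and 12 h was 0.58 (s.e. 0.18, edgeR adjusted p 0.0263), below the fold threshold. It passed that threshold with the running-number factor (0.89), without Ctr 72 h replicate 2 (0.72) and without SE 12 h replicate 1 (0.77). The lowest value among the fits that left out 1 library was 0.44, without SE 72 h replicate 1, the library with 79.7 CPM. Without that library the 72 h log2FC was -0.47. SE and control libraries of 72 h share no range of running numbers, and the SE 24 h libraries share none with any control library. Values with the running-number factor therefore cannot separate running number from treatment at 24 or 72 h. With library size alone as scaling, the 36 h value was -0.63 and the call was lost by the fold threshold. With the running-number factor, the log2FC was -0.52 at 6 h and -0.50 at 24 h, both below the fold threshold. At 72 h the sign changed with this factor, to 0.05 (edgeR adjusted p 0.859).

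Ezh2 was low in every control library and was 1.89- to 2.74-fold higher after SE. Its level was 6.91, 7.4 and 5.41 CPM at Ctr 12 h, 8.27, 6.68 and 4.19 at Ctr 36 h, and 6.75, 6.99 and 10.5 at Ctr 72 h. After SE it was 16.5, 15.9 and 14.1 CPM (SE 6 h), 14.6, 8.39 and 14.3 CPM (SE 12 h), 18.7, 17.7 and 13.7 CPM (SE 24 h), 12.9, 19.9 and 15.2 CPM (SE 36 h), and 17.9, 23.9 and 22.5 CPM (SE 72 h). SE and time-matched control libraries did not overlap at 12, 36 or 72 h, although SE 12 h replicate 2 (8.39 CPM) stood close to the highest control of its time (7.4 CPM). By edgeR the log2FC was 0.92 (s.e. 0.25, adjusted p 0.00705) at 12 h, 1.32 (s.e. 0.25, adjusted p 0.000492) at 36 h and 1.46 (s.e. 0.27, adjusted p 0.000406) at 72 h. The effect at 72 h was not distinguishable from that at 12 h (difference 0.54, s.e. 0.37, edgeR adjusted p 0.31). Ezh2 was the one member called in all 5 comparisons of SE with control.

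Because both genes were counted in the same library, their ratio does not depend on library size or scaling. The log2 ratio of Ezh2 to Ezh1 counts was -3.86 ± 0.40 (SD, n = 3) at Ctr 12 h, -3.86 ± 0.51 at Ctr 36 h and -3.40 ± 0.52 at Ctr 72 h. After SE it was -1.81 ± 0.13 (6 h), -2.05 ± 0.47 (12 h), -1.65 ± 0.17 (24 h), -1.74 ± 0.23 (36 h) and -1.63 ± 0.45 (72 h), each as mean and SD over 3 libraries. The highest control library (-2.84) lay below the lowest SE library (-2.47). The mean of the within-time differences at 12, 36 and 72 h was 1.89, a 3.71-fold shift towards Ezh2 (exact stratified permutation test, two-sided, p = 0.00025, the smallest it can give; 0.001 after Benjamini-Hochberg adjustment over 4 ratios). It was 1.80, 2.11 and 1.76 at the 3 times. Even so, Ezh1 counts exceeded Ezh2 counts in every SE library, at a mean ratio of 0.322 at 72 h.

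**Figure D3:**
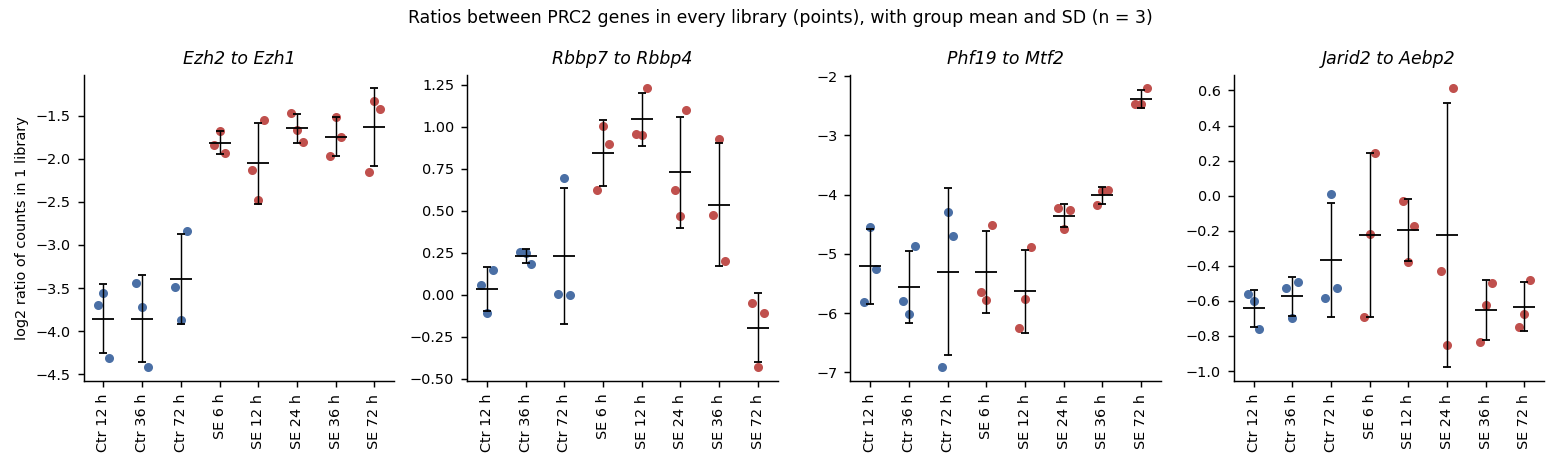
log2 ratio of the counts of 2 PRC2 genes in 1 library (vertical axes) by group (horizontal axes), with 1 point per library, control in blue, SE in red, and group mean and SD in black (n = 3). For Ezh2 to Ezh1 all 15 SE libraries (at least -2.47) lie above all 9 control libraries (at most -2.84), for Phf19 to Mtf2 the ratio climbs to -2.38 at 72 h, and for Jarid2 to Aebp2 SE lies above control at 12 h and overlaps it at 36 and 72 h.

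Promoter sequence differed between the catalytic pair in 1 of the motifs searched, and is shown here for that contrast. The 300-base windows around the 14 RefSeq start sites of the 10 genes (GRCm38.p6), found again exactly in GRCm39, were searched on both strands for the E2F cores TTTGGCGC and GGCGGGAA, the cAMP response element TGACGTCA and the E-box CACGTG. The 2 matches found lay in different genes. Ezh2 alone held TTTGGCGC, which starts 3 bases after the annotated start and occurs in 0.514% of 32851 mouse promoters of this length. The stretch of Ezh2, on the minus strand at chr6:47571943-47571972 (GRCm39), is printed with the core in capitals, above the same positions relative to the start of Ezh1, on the minus strand at chr11:101117268-101117297.
Ezh2: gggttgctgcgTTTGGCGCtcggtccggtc
Ezh1: gcgtggccgcggcgcaggggcgtggccgta
The only other match among the 14 windows was the E-box of Rbbp4, 224 bases before its start, a motif held by 7.15% of all promoters, against 2.19% for GGCGGGAA and 1.79% for TGACGTCA. The windows had a median of 63.5% G and C and 23.5 CpG, against 52.667% and 7 over all promoters. A match of letters is a description and no measure of binding.

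Of the scaffold genes, Eed passed by adjusted p in all 5 comparisons of SE with control and by fold for SE 24 h alone, whereas Suz12 and Rbbp4 were called in none. Eed, which binds the methylated histone and stimulates the enzyme, was at 12.3, 13.5 and 16.5 CPM at Ctr 12 h and 15.06, 23.14 and 21.03 CPM at SE 12 h, 14.03, 12.21 and 15.04 against 17.8, 19.9 and 18.1 at 36 h, and 18.1, 10.7 and 15.7 against 19.2, 22.9 and 19.1 at 72 h. The groups overlapped at 12 h only. By edgeR its log2FC was 0.47 (adjusted p 0.0176), 0.44 (adjusted p 0.0321) and 0.47 (adjusted p 0.0308) at the 3 times, each below the fold threshold. It reached 0.72 (s.e. 0.12) for SE 24 h, where the libraries held 23.36, 23.04 and 23.47 CPM, and 0.64 without Ctr 72 h replicate 2, which put it under the threshold, as did the running-number factor (0.57). Without the same control library the 72 h value was 0.26.

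Suz12, the subunit that holds the complex together, did not pass in any comparison of SE with control. Its libraries ranged from 43.5 to 53.0 CPM in control and from 41.5 to 58.0 CPM after SE, and its log2FC from -0.11 (6 h) to 0.19 (12 h). The 12 h libraries of SE (56.2, 55.8 and 53.9 CPM) nevertheless lay above those of Ctr 12 h (47.9, 44.9 and 53.0 CPM). Over all members, SE and control libraries did not overlap for 6 of 10 genes at 12 h (47.7% of all tested genes in either direction), 9 at 36 h (51.9%) and 5 at 72 h (32.8%).

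Rbbp4 and Rbbp7, interchangeable histone chaperones that also serve other chromatin complexes, differed in their course. Rbbp7 held 127, 112 and 148 CPM at Ctr 12 h, 138, 142 and 134 at Ctr 36 h, and 126, 142 and 137 at Ctr 72 h. After SE it held 172, 204 and 194 CPM (SE 6 h), 265, 234 and 277 CPM (SE 12 h), 215, 188 and 308 CPM (SE 24 h), 174, 246 and 171 CPM (SE 36 h), and 143, 104 and 134 CPM (SE 72 h). All SE libraries from 6 to 36 h lay above all control libraries, and the 72 h groups overlapped. Rbbp7 doubled at 12 h (log2FC 1.00, s.e. 0.17, edgeR adjusted p 0.000142), was 0.51 (adjusted p 0.026 by edgeR) at 36 h and -0.08 (edgeR adjusted p 0.764) at 72 h. The 72 h effect was smaller than the 12 h effect by edgeR (difference -1.08, s.e. 0.24, adjusted p 0.00366), but not with the running-number factor (-0.91, edgeR adjusted p 0.0685). Without SE 36 h replicate 2 the 36 h value was 0.32. Without SE 24 h replicate 3, the library with 308 CPM, the 24 h log2FC dropped from 0.82 to 0.59 and was no longer called.

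Rbbp4 ranged from 87.3 to 137 CPM in control and from 101 to 149 CPM in SE libraries, and 118 to 136 CPM at SE 12 h gave a log2FC of -0.003 (s.e. 0.10). By edgeR it was 0.32 (s.e. 0.10, adjusted p 0.0205) at 72 h, below the fold threshold, and 0.14 without Ctr 72 h replicate 2. The log2 ratio of Rbbp7 to Rbbp4 was higher than in control by 1.01 at 12 h and 0.31 at 36 h, and the difference was -0.43 at 72 h. The mean over the 3 times, 0.30, did not pass (exact stratified permutation test, adjusted p 0.203). Without Ctr 72 h replicate 2, whose Rbbp4 was the lowest of all libraries, the mean was 0.37 with an adjusted p of 0.045 in the same exact test.

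Among the Polycomb-like members, which bring the complex to CpG-rich DNA, the minor gene, Phf19, rose late and the major gene, Mtf2, declined slightly. Phf1, a Polycomb-like gene outside the members, was called lower at 12, 36 and 72 h (log2FC -1.16, -0.79 and -0.93). Phf19 was at 0.946, 2.07 and 1.12 CPM at Ctr 12 h, 0.863, 0.731 and 1.64 at Ctr 36 h, and 0.422, 2.56 and 1.87 at Ctr 72 h. After SE it was 0.959, 0.784 and 1.78 CPM (SE 6 h), 0.547, 0.796 and 1.35 CPM (SE 12 h), 2.34, 1.96 and 2.45 CPM (SE 24 h), 2.30, 2.52 and 2.68 CPM (SE 36 h), and 6.51, 6.77 and 8.53 CPM (SE 72 h). The 6 and 12 h libraries lay within the control range, and the 72 h libraries lay above all others. By the fit, Phf19 was 5.80-fold higher at 72 h (log2FC 2.54, s.e. 0.51, edgeR adjusted p 0.000912), with mean levels of 1.62 CPM at Ctr 72 h and 7.27 CPM at SE 72 h. Without Ctr 72 h replicate 1, the control library with 0.422 CPM, the log2FC was 1.67 and the call was kept. The 36 h call was marginal (log2FC 1.23, s.e. 0.46, edgeR adjusted p 0.0459): it was lost in 11 of the 24 fits that left out 1 library (as low as 1.00, without Ctr 36 h replicate 2), without the RUVr factor (1.23, edgeR adjusted p 0.0702) and with the running-number factor (1.07, edgeR adjusted p 0.0676). Phf19 was not called for SE 24 h (log2FC 0.86, edgeR adjusted p 0.0658), but was called there by DESeq2 and limma-voom. The effect at 72 h exceeded that at 12 h by 3.18 on the log2 scale (s.e. 0.69, edgeR adjusted p 0.00315), and SE 72 h exceeded SE 36 h by 1.55 (s.e. 0.43, edgeR adjusted p 0.0251).

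Mtf2 ranged from 43.8 to 56.1 CPM in the 9 control libraries. It held 43.8, 44.1 and 41.0 CPM at SE 12 h, 42.0, 39.1 and 40.9 at SE 36 h, and 36.1, 37.7 and 39.4 at SE 72 h. The groups did not overlap at 36 and 72 h. Its log2FC was -0.21 at 12 h (edgeR adjusted p 0.0966), -0.28 at 36 h (edgeR adjusted p 0.0314) and -0.51 at 72 h (edgeR adjusted p 0.000677), a small decrease below the fold threshold. The log2 ratio of Phf19 to Mtf2 differed from control by -0.42, 1.56 and 2.92 at the 3 times, with a mean of 1.35 (exact stratified permutation test, adjusted p 0.026). It no longer passed at an adjusted p of 0.05 in 5 of 18 fits that left out 1 library (values 1.23 to 1.37): Ctr 12 h replicate 1, SE 12 h replicate 3 or any SE 72 h replicate.

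The pair Jarid2 and Aebp2, which help the complex to bind nucleosomes, were both raised early. Jarid2 was at 47.2, 43.6 and 41.8 CPM at Ctr 12 h, 49.6, 46.3 and 52.4 at Ctr 36 h, and 48.8, 53.2 and 43.1 at Ctr 72 h. After SE it was at 55.6, 87.6 and 127 CPM (SE 6 h), 91.6, 98.8 and 112 CPM (SE 12 h), 73.5, 49.1 and 194 CPM (SE 24 h), 52.5, 65.7 and 60.1 CPM (SE 36 h), and 33.1, 39.8 and 54.0 CPM (SE 72 h). Replicates differed widely at 6 and 24 h and were close at 12 h, and the 72 h groups overlapped. Jarid2 was 2.28-fold higher at 12 h (log2FC 1.19, s.e. 0.34, edgeR adjusted p 0.00984), and its log2FC was 0.27 at 36 h and -0.19 at 72 h, neither of which passed. Without SE 24 h replicate 3 the 24 h value dropped from 1.15 to 0.37, and without SE 6 h replicate 3 the 6 h value dropped from 0.93 to 0.59, and both calls were lost. With the running-number factor the calls were lost at 12 h (0.90, edgeR adjusted p 0.0774), 6 h and 24 h.

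Aebp2 was at 69.8, 66.2 and 70.9 CPM at Ctr 12 h and 93.6, 129 and 126 CPM at SE 12 h, 71.6, 75.2 and 73.7 against 93.7, 101 and 85.0 at 36 h, and 73.0, 52.9 and 62.2 against 55.5, 63.5 and 75.3 at 72 h. The groups did not overlap at 12 and 36 h. By edgeR the log2FC was 0.74 (s.e. 0.13, adjusted p 0.000197) at 12 h, 0.34 (adjusted p 0.0535) at 36 h and 0.04 (adjusted p 0.862) at 72 h. In SE 6 and 24 h it passed by p but not by fold (0.55 and 0.62), and with the running-number factor this was so at 12 h too (0.63). The log2 ratio of Jarid2 to Aebp2 differed from control by 0.45 at 12 h, where the groups did not overlap, and by -0.08 and -0.27 at 36 and 72 h, where they did. The mean of these values of opposite sign, 0.03, did not pass (exact stratified permutation test, adjusted p 0.777).

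The time course was tested directly as the difference between SE effects. Between 72 and 12 h, 4 of the 10 genes differed by the call rule: Jarid2 (-1.38, edgeR adjusted p 0.0487), Aebp2 (-0.70, edgeR adjusted p 0.0118) and Rbbp7 were lower and Phf19 higher at 72 h, against 18.6% of all genes. The Jarid2 difference lost its call in 17 of 24 fits that left out 1 library, in limma-voom, without the RUVr factor (edgeR adjusted p 0.0526) and with the running-number factor (-1.20, edgeR adjusted p 0.227), and that of Aebp2 in 4 (Ctr 72 h replicate 1, SE 12 h replicates 2 and 3, SE 72 h replicate 1). For 36 minus 12 h and for 72 minus 36 h, 0 of 10 were called by edgeR (2 and 2 at an unadjusted p under 0.05), with 1 and 0 by DESeq2 and 0 and 0 by limma-voom. The share of all genes was 3.38 and 4.81%. Between consecutive SE groups, at a fold threshold of 1, the only call was Phf19 from 36 to 72 h (4.13% of all genes). From 6 to 12 h, from 12 to 24 h and from 24 to 36 h, 0 of 10 were called by edgeR (3, 1 and 2 at an unadjusted p under 0.05), against 1.34, 3.18 and 0.529% of all genes. DESeq2 and limma-voom each called Phf19 from 12 to 24 h and nothing else in these 3 comparisons.

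At 72 h SE and control libraries share no range of running numbers in the labels, and the SE 24 h libraries share none with any control library. The running number and the treatment therefore cannot be told apart at 24 and 72 h. Cell type markers moved as well, and in bulk tissue fewer cells of a type and less RNA per cell cannot be told apart. The 8 mitotic markers, among them Mki67 and Top2a, had a summed level of 6.4 to 19.5 CPM in control libraries, 9.81 to 12.7 at SE 12 h, 38.5 to 106 at SE 36 h and 195 to 235 at SE 72 h. Of these 8 markers, 5 rose for SE 6 h, 7 for SE 24 h and all 8 at 36 and 72 h, and at 12 h 0 of 8 were called by edgeR, DESeq2 or limma-voom, with 0 at an unadjusted p under 0.05. The 6 markers of DNA replication, among them Mcm2 and Mcm5, rose in 4 of 6 in the 12 h comparison, 3 of 6 for SE 6 h, 5 of 6 for SE 24 h, and 6 of 6 in both later comparisons (48.2 to 81.7 CPM in control, 223 to 301 CPM at SE 72 h). Ezh2 was called in all 5 comparisons, and Phf19 by edgeR in those of 36 and 72 h.

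The 8 microglial markers summed to 214 to 237 CPM at SE 6 h and 307 to 404 CPM in control, and all 8 rose at 72 h (1266 to 1847 CPM). The summed level of 6 astrocyte markers was 2319 to 2720 CPM in control and 10455 to 12037 CPM at SE 72 h, with 3 of 6 called higher and 0 lower. These markers did not move together: 2 were called higher and 1 lower at 12 h, 2 and 3 for SE 24 h, and 3 and 3 at 36 h. Gfap weighs most in the sum, with up to 176389 counts in a library, against at most 24844 for Slc1a3. The summed level of 5 neuronal markers was 5520 to 7620 CPM in control, 4225 to 4710 at SE 12 h and 3548 to 4101 at SE 72 h. Dentate granule markers reached 229 CPM in 1 library of SE 72 h, against 3.24 to 88.6 CPM in controls, with Dsp at 0 counts in at least 1 library. The part of these changes in the values of the PRC2 genes was not tested. Oligodendrocyte, precursor, vascular and interneuron markers were also summed: 1141 to 5318, 76.8 to 174, 206 to 352 and 356 to 1281 CPM after SE, against 2165 to 3710, 79.1 to 127, 124 to 189 and 485 to 754 CPM in control.

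**Figure D4:**
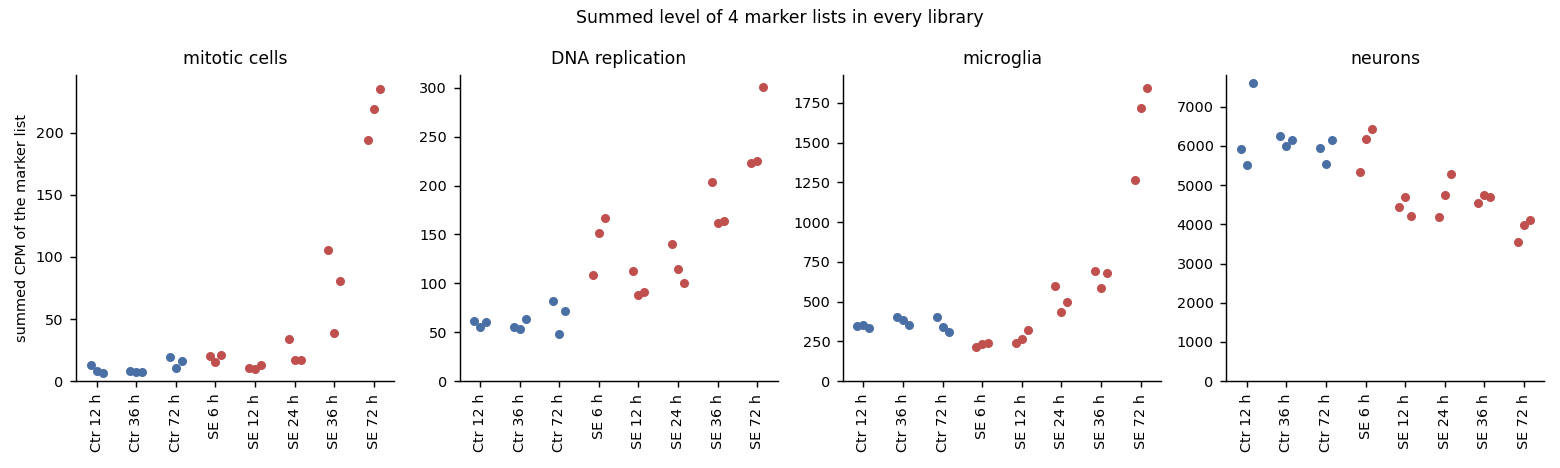
Summed CPM of 4 marker lists (vertical axes, from 0) in the 24 libraries by group (horizontal axes), control in blue and SE in red. The mitotic sum rises from 36 h to 195 to 235 CPM at 72 h, the DNA replication sum is above control at all times, the microglial sum is below control at 6 h and above it from 24 h, and the neuronal sum lies below control from 12 h.

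The genes whose profiles were most like those of the catalytic subunits were found by the root mean square difference of centred log2 CPM over the 24 libraries, among 13750 genes. For Ezh1 these were Colgalt1 (0.155), Mblac2 (0.157), Crebl2 (0.164), Map3k12 (0.170) and Tcaim (0.172), against 0.393 for the spread of Ezh1 around its own mean. For Ezh2 they were Itpripl1 (0.301), Slc39a1 (0.311), S100a16 (0.318), Lmnb1 (0.318) and Tpcn2 (0.324), against an own spread of 0.680. The likeness is a description over libraries that share their groups.

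Further Polycomb genes were taken by list, and their counts are to be read against the 25.2, 21.6 and 19.4% of all genes called at 12, 36 and 72 h. Of 4 measured partners of PRC2 outside the members, Phf1, a further Polycomb-like protein, was lower at 12, 36 and 72 h (log2FC -1.16, -0.79 and -0.93), and Epop, an elongin-binding partner of PRC2, was lower at the same times (-0.97, -3.88 and -1.95). Epop was at 55.0 to 57.8 CPM at Ctr 36 h and at 3.56 to 4.41 CPM at SE 36 h. Lcor was higher at 12 h (1.32). Without SE 12 h replicate 1 the count of partners called at 12 h went from 3 to 1.

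The H3K27 demethylase Kdm6b, which removes the mark that PRC2 places, rose at 12 h (215 to 378 CPM against 45.2 to 57.0 CPM in control, log2FC 2.49) and at 36 h (0.92), and its homologue Kdm6a was not called. Of 21 genes of PRC1, the complex that reads the mark and ubiquitinates histone H2A, 2 were lower at 12 h (Ring1, -0.78, and Cbx7, -0.85) and 2 at 36 h (Cbx7, -0.76, and Pcgf2, -0.71). At 72 h 0 of 21 were called by edgeR, DESeq2 or limma-voom (8, 8 and 5 at an unadjusted p under 0.05). These counts of 2, 2 and 0 of 21 lie below the share of all genes. The median log2FC of PRC1 was -0.18, -0.25 and -0.21 at the 3 times. The 36 h count of PRC1 was 0 with library size alone as scaling.

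Of 14 genes of the NuRD, Sin3 and CAF-1 complexes that share Rbbp4 or Rbbp7, Mbd2 was higher at all 3 times (1.08, 0.89 and 0.75) and Gatad2a at 12 and 36 h (0.77 and 0.69). Chaf1b, a subunit of the chromatin assembly factor of replicating cells, rose by 3.01 at 36 h and 3.62 at 72 h, and Chaf1a by 1.24 at 72 h. Chaf1b was at 0 in 1 Ctr 72 h library, and Chaf1a ranged from 0.750 to 7.33 CPM in that group and from 9.63 to 12.96 CPM at SE 72 h. Chd3 was lower at 36 and 72 h (-0.76 and -0.67). Of the 4 PR-DUB genes, which remove the PRC1 mark, and the 4 trithorax methyltransferase genes, which oppose Polycomb, 0 were called at 12, 36 or 72 h by edgeR, DESeq2 or limma-voom. By edgeR, 1, 1 and 2 PR-DUB and 0, 2 and 0 trithorax genes had an unadjusted p under 0.05 at the 3 times.

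Of 22 developmental genes known as PRC2 targets, 11 were tested, and 1 of the 22, Isl1, is also among the sensory ganglion markers. At 12 h, 4 were lower and 0 higher: Pax6 (-1.01), Lhx2 (-1.11), Cdkn2b (-1.62) and Lhx9 (-3.03), while the median log2FC of the 11 was 0.37, of opposite sign. Lhx2, a regulator of hippocampal development, was at 68.7 to 81.1 CPM at Ctr 12 h and 25.5 to 43.3 CPM at SE 12 h, and was lower at 36 h too (-1.14), when Wt1 was higher (2.67). Wt1 was very low, at 0.082 to 0.157 CPM at Ctr 36 h and 0.519 to 1.18 CPM at SE 36 h. Cdkn2b was also low, at 0.829 to 1.04 CPM at Ctr 12 h and 0.239 to 0.447 CPM at SE 12 h. Lhx9 ranged from 2.97 to 34.7 CPM at Ctr 12 h and from 1.03 to 2.31 CPM at SE 12 h. At 72 h edgeR called Cdkn2b, Hoxc8 and Hoxb5 higher, but the mean level was 1.65, 0.512 and 1.99 CPM at Ctr 72 h and 1.49, 0.680 and 1.41 CPM at SE 72 h, so the fitted direction goes against the means for Cdkn2b and Hoxb5 and no fold is given. Hoxb5 was at 5.97 CPM in 1 library of Ctr 72 h and at 0 in the others. The 72 h count was 1 without Ctr 72 h replicate 2, 0 without the RUVr factor and 0 in DESeq2.

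**Figure D5:**
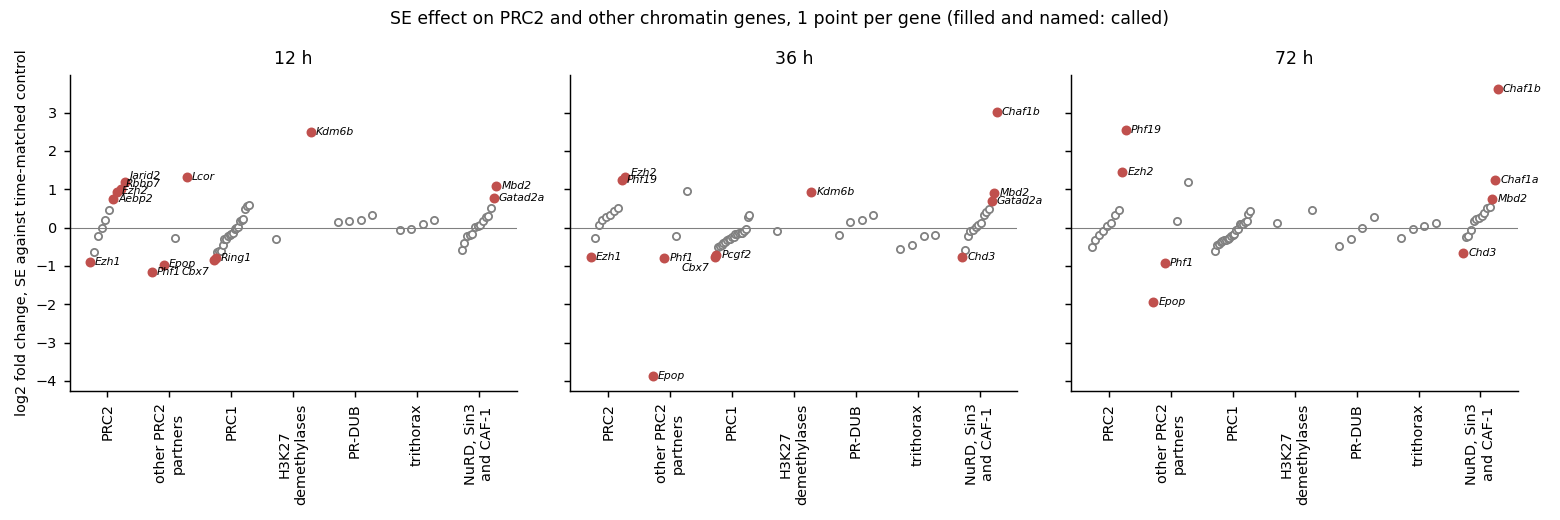
log2FC of SE against time-matched control (vertical axis) at 12, 36 and 72 h for the PRC2 genes and 6 further lists of chromatin genes (horizontal axis), with 1 point per gene, filled and named where called. Among the genes drawn, Kdm6b stands highest at 12 h (2.49), Epop lowest at 36 h (-3.88), and Chaf1b highest at 72 h (3.62), while the PR-DUB and trithorax lists hold no called gene.

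Counting was not strand-specific, so reads from overlapping genes on the opposite strand cannot be separated. Such exonic overlap was 3178 bp for Rbbp4 (with Sync), 1293 bp for Jarid2 (with Dtnbp1), 814 bp for Ezh1 (with Cntnap1), 395 bp for Mtf2 (with Tmed5), 355 bp for Eed (with E230029C05Rik), 185 bp for Rbbp7 (with Txlng) and 94 bp for Ezh2 (with Cul1). For Phf19 it was 194 bp (with Gm13448) and for Aebp2 139 bp (with Gm67417), genes that are not in the count table. No gene overlapped Suz12. The transcripts of paralogues shared no identical stretch of 50 bases: the longest identical run was 17 bp for Ezh2 and Ezh1, 39 bp for Rbbp7 and Rbbp4 and 14 bp for Phf19 and Mtf2. By GENCODE M39 (GRCm39), Ezh1 lies at chr11:101081934-101117315, Ezh2 at chr6:47507073-47572331 and Phf19 at chr2:34783764-34805063, all on the minus strand.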

How the data were processed

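The authors trimmed reads with Trim Galore 0.6.6, aligned them to GRCm39 with STAR 2.7.8a and GENCODE M26, sorted them with SAMtools 1.10, and counted read pairs per gene without regard to strand with HTSeq 0.13.5. The deposited table holds raw counts per gene for 24 libraries, with 18647 genes. Its gene identifiers were matched to GENCODE M39 for symbols and positions: 18552 matched and 95 did not. From the counts, genes were filtered for low values and scaled with TMM in edgeR 4.0.16 (R 4.3.3). RUVr with 1 factor was written anew for this work from the description of the method, as the study applied RUV through consensusDE without giving a number of factors. The fit covered all 24 libraries with 1 term per group. Alternatives used DESeq2 1.42.0 and limma 3.58.1. Ratios were log2 of counts plus 0.5, tested by exact permutation within time points. The fitting script was tested on simulated data with known fold changes.

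The members and gene lists were chosen with earlier results of these data known. Named genes were all 10 members in each comparison, called genes of each context list (at most 6 per list and comparison, smallest adjusted p first), counts and summed CPM of the marker lists, and the 5 genes most like Ezh1 and Ezh2 among tested genes averaging 1 or more in log2 CPM. Kdm6a and single libraries were named after their values were seen. Promoter windows came from RefSeq (GRCm38.p6). Protein sequences were not used here. Replicate numbers were checked as a pairing by the correlation of residual deviations, which ran from -0.20 to 0.18 over the 9 same-numbered pairs, so numbers were not taken to pair the samples. Of the 24 pairs of libraries of the same group, none agreed within sampling noise. The 8 groups came from the treatment and time given in the labels, and 0 sample columns were left unused.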

Additional observations from a re-analysis of the deposited data

Results flagged for a closer look

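The SE effect differed between 72 and 12 h for 5 genes by edgeR's adjusted p of the difference itself, at any fold. The share of all genes by that rule is not given here, so the count of 5 has no background beside it. By the call rule, with its fold threshold, 4 of 10 differed, against 18.6% of all genes. Jarid2 was lower by -1.38 (from a log2FC of 1.19 at 12 h to -0.19 at 72 h), a call that was lost in 17 of 24 fits without 1 library, in limma-voom, without the RUVr factor and with the range of running numbers as a factor. Aebp2 was lower by -0.70 (from 0.74 to 0.04) and Rbbp7 by -1.08 (from 1.00 to -0.08), the latter not with that factor (-0.91, edgeR adjusted p 0.0685). Ezh1 differed by 0.58, with a smaller decrease at 72 h (-0.33) than at 12 h (-0.91), below the fold threshold, which it passed with that factor (0.89). Leaving out SE 72 h replicate 1 gave a difference of 0.44 for Ezh1. Phf19 differed by 3.18 (from -0.64 to 2.54). SE and control libraries of 72 h share no range of the running numbers in the labels, and at 12 h both arms share 1 range with 1 library of each arm. The running number and the group therefore cannot be told apart at 72 h.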

How the results depend on the processing

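Of 2154 alternative log2FC values of single members, 2024 kept direction and side of the threshold, 60 lost and 25 gained a call, and 45 changed sign. Most of these values come from fits that left out 1 of the 24 libraries. Where that library lay outside the groups compared, it could act only through the shared fit, so the share kept is no measure of robustness. Under the range of running numbers as a factor, called members went to 3 at 12 h, 1 at 6 h, 2 at 24 h and 1 for 72 minus 36 h. With an absolute log2FC of at least 1 they were 2 at 12 h, 1 at 6 h and 2 at 24 h, and with no fold threshold 6 at 36 h, 5 at 72 h, 6 at 6 h and 3 for SE 72 against 36 h. With at least 10 counts in every library Phf19 was not tested, and 72 h gave 1 and SE 72 against 36 h gave 0, as did the latter without the RUVr factor. DESeq2 gave 1 for 36 minus 12 h, as did the fit on compared groups only. SE 24 against 12 h gave 1 in DESeq2, limma-voom and the fit with the replicate block, which also called Phf19 for SE 24 h. Same-numbered libraries correlated from -0.20 to 0.18 in their residuals, so the numbers were not taken to pair them.

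Values that changed sign were all near 0 after the change and not called, although the reported value of Ezh1 at 72 h was -0.33. For Rbbp4 at 12 h they were 0.0208 (DESeq2), 0.0217 (RLE size factors), 0.0408 (at least 10 counts) and 0.032 (library size only). For Phf19 at 6 h they were 0.0259 (DESeq2), 0.0148 (compared groups only) and 0.137 (limma-voom). For the difference of Eed between 72 and 12 h they were 0.0202 (at least 10 counts), 0.0161 (running numbers), 0.00892 (library size only) and 0.00101 (no filter). With running numbers as a factor, 72 h gave 0.0502 for Ezh1, -0.131 for Aebp2 and 0.0971 for Rbbp7, and 72 minus 12 h gave 0.0625 for Suz12. The cause was not tested.

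Leaving out 1 library gave 5 members at 12 h, 2 to 3 at 36 h, 2 at 72 h, 2 to 3 at 6 h, 3 to 6 at 24 h, 2 to 5 for 72 minus 12 h, and 0 to 1 for 36 minus 12 h, SE 24 against 12 h and SE 72 against 36 h. Near 0, and not called, log2FC ran from -0.0708 to 0.0429 (Rbbp4, 12 h), -0.00863 to 0.14 (Suz12, 36 h), -0.078 to 0.171 (Aebp2, 72 h), -0.176 to 0.0428 (Rbbp7, 72 h) and -0.493 to 0.179 (Phf19, 6 h), and the 72 minus 12 h difference from -0.225 to 0.185 (Eed) and -0.133 to 0.013 (Suz12). The ratio of Ezh2 to Ezh1 ran from 1.80 to 1.99, Rbbp7 to Rbbp4 from 0.23 to 0.37, Jarid2 to Aebp2 from -0.00194 to 0.0965 and Phf19 to Mtf2 from 1.08 to 1.52. The last was 1.02 (adjusted p 0.0553, exact permutation) with all SE against all control libraries, and 1.35 (adjusted p 0.0859, exact sign flips) with replicate pairs as a block. Library size alone moved the share of higher calls at 36 h from 58.8% to 69.9% and the median of all genes from 0.003 to 0.127. Low counts limit Phf19, with 5 as the lowest in any library. Its lowest level, 0.422 CPM, was in Ctr 72 h replicate 1, a library of 11680209 counts and not the shallowest one.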
